A study of Mus musculus with 12 samples.

Results

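The comparison described here is the loss of the fatty acid receptor GPR120 in the muscle of mice fed a high fat diet. It compares 6 of the 12 arrays of the series, chosen by their labels and all on the high fat diet (HFD). These were 3 from GPR120 knockout (KO) mice and 3 from wild-type (WT) mice. The other 6 arrays, 3 KO and 3 WT mice on a normal diet (ND), show where the HFD difference departs from the ND difference. They also entered the intensity filter, the choice of probe set and the spread behind each p-value. Every mouse was 16 weeks old, of a mixed 129/Sv and C57BL/6 background, and gave total RNA from a muscle that the labels do not name. The knockout is labelled as genotype alone, with no promoter or cell type, so it is described here as a loss in the whole animal only as far as the label goes. Feeding time, fat content and sex are not given in the labels. The series title ties GPR120 to obesity caused by the high fat diet, and the question of this comparison is which muscle transcripts differ between the genotypes once that diet is eaten. Differences are KO minus WT on the log2 scale, where 1 is a doubling, and values for single mice are given in the order of mouse 1, 2 and 3 of their group, a number that names a mouse and pairs none.

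GPR120, encoded by Ffar4, is a G protein-coupled receptor of the cell surface that binds long-chain fatty acids, including the omega-3 fatty acids of fish oil. It signals through Gq and through beta-arrestin 2, and in macrophages the beta-arrestin arm dampens inflammatory signalling through TAK1. It is known mainly from adipose tissue, macrophages, gut endocrine cells and taste cells. Skeletal muscle consists chiefly of fibres, and its bulk RNA also carries transcripts of resident macrophages, fibroblasts, vessels, nerve and the fat cells that lie between the fibres.

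Of 11345 genes tested, 83 differed between KO and WT muscle on the high fat diet at an adjusted p under 0.05 (limma, Benjamini-Hochberg over all genes), which is 0.732% of the genes tested. There were 58 higher in KO (0.511%) and 25 lower (0.22%). Median centring of the arrays changed that split to 23 higher and 18 lower. Among the largest increases were the cytokine-induced genes Ubd and Hp, the small heat shock protein Hspb7, the synuclein Sncg, the macrophage genes Lgals3 and Cd68 and the matrix gene Postn. The largest decreases were in Tmem100, Rbp7, Neto2 and Ctxn3, and the glutathione-degrading enzyme Chac1 was also lower. Over the 83 genes the median absolute difference was 1.14, the range 0.38 to 4.60, and 51 genes differed at least 2-fold. Before adjustment, 1681 genes had a p under 0.05.

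**Figure D1:**
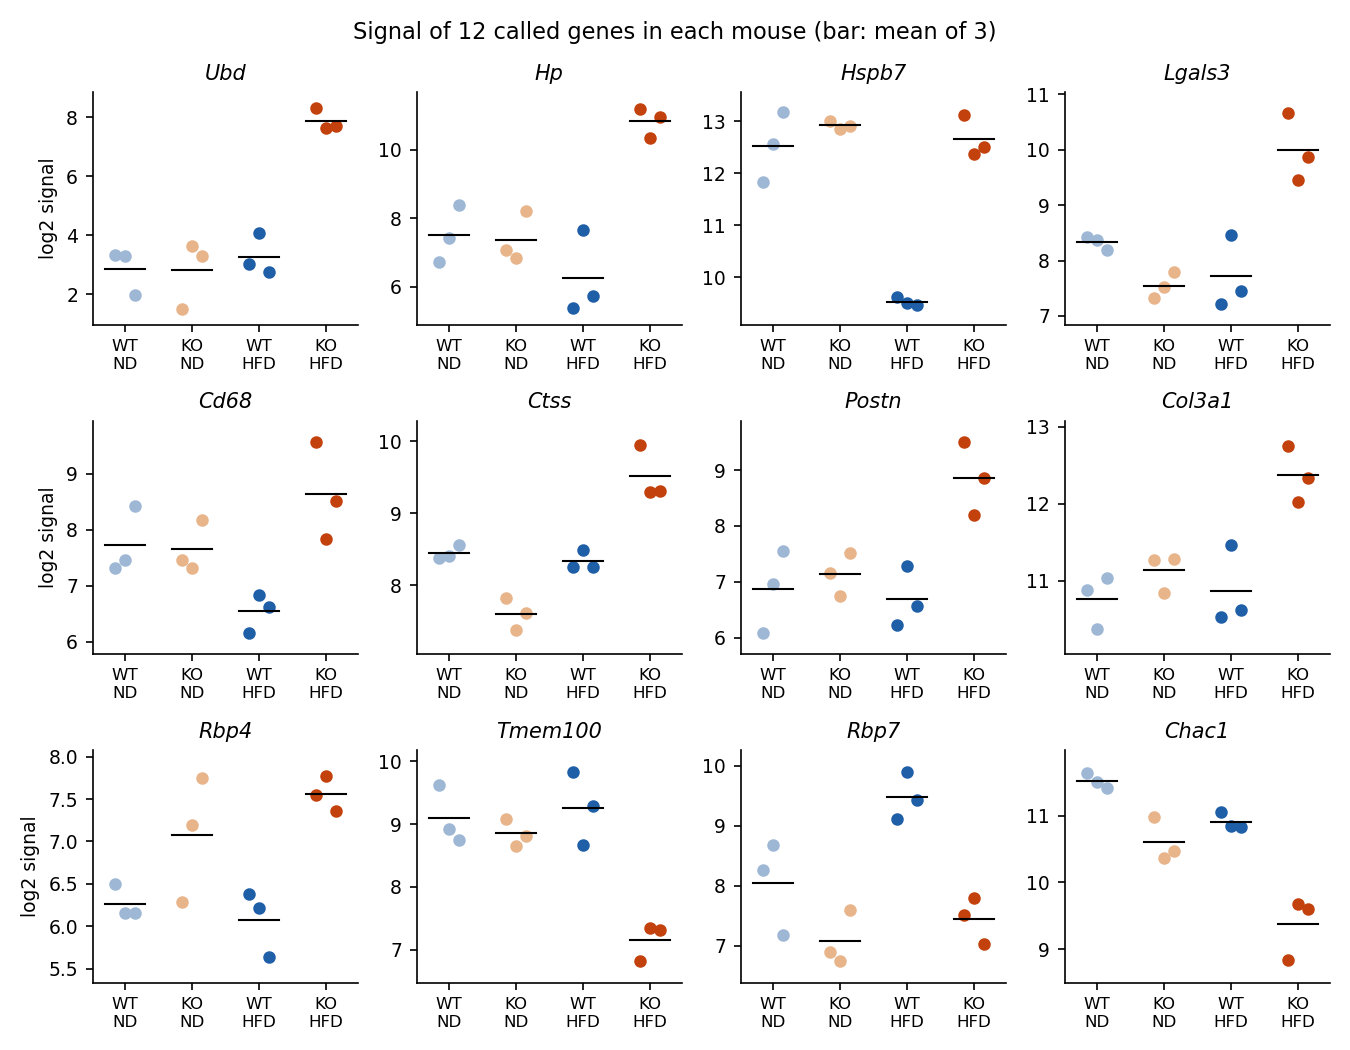
Log2 signal (vertical axis, a separate range in each panel that does not start at 0) of 12 genes past the threshold, 1 point for each of 12 mice and a bar for the mean of 3, by genotype and diet (ND, normal diet; HFD, high fat diet). Ubd, Hp, Lgals3, Ctss, Postn and Col3a1 are highest in the 3 KO mice on high fat diet, Tmem100 and Chac1 are lowest there, and in Hspb7 it is the 3 WT mice on high fat diet, at 9.48 to 9.63, that lie apart from the other 9.

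Single mice moved the count, which was 15 without KO mouse 1, 76 without KO mouse 2, 25 without KO mouse 3, 23 without WT mouse 1, 237 without WT mouse 2 and 21 without WT mouse 3. WT mouse 2 had the highest value of the WT trio in 42 of the 58 genes higher in KO, and KO mouse 1 the highest of the KO trio in 47 of the 58, where over all 11345 genes those mice were highest in 3734 and 4101. KO mouse 2 was the lowest KO mouse in 40 of the 58. The 13 genes called whichever of the 6 mice was left out were Ubd, Hp, Hspb7, Lgals3, Pla2g7, Ctss, Acot7, Vim and Cav1, all higher, and Tmem100, Chac1, Flvcr1 and Fbxo6, all lower. No trend of the spread with intensity in the model left 7 genes, namely Acot7, Cav1, Flvcr1, Hp, Hspb7, Pla2g7 and Ubd.

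Control probes were compared between the HFD groups. The log2 ratio of 3′ to 5′ control probes, a sign of RNA integrity, was 0.16 ± 0.13 in KO and 0.18 ± 0.02 in WT (SD, n = 3 each; exact permutation test, two-sided, p = 0.9, smallest possible 0.1). Poly-A spikes read 7.36 ± 0.09 in KO and 7.10 ± 0.16 in WT (exact permutation p = 0.1, the smallest possible, reached when groups do not overlap), and whether that bears on any gene was not tested. Array medians lay between 3.87 and 4.16 over the 12 arrays. The muscle label held: all 19 skeletal muscle fibre markers were tested, with a mean log2 signal of 13.4 to 13.6 in the 6 HFD mice. The mouse identifiers of the groups cover different ranges, so genotype and cohort or litter cannot be told apart.

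The genotype could not be checked on Ffar4 itself. Its only probe set, on chromosome 19, averaged 1.61 over the 12 arrays, at percentile 20.1 among the probe sets and below the intensity filter of 3.78. On the high fat diet it read 1.27, 2.40 and 0.56 in WT and 3.20, 2.77 and 0.98 in KO. The groups overlap, all 6 values lie where the probe set is dim, and no source used here says whether the deletion covers it. Ffar2, a receptor for short-chain fatty acids, was the only other fatty acid receptor above the filter, at 4.83 ± 0.65 in WT and 5.84 ± 0.37 in KO (adjusted p = 0.413). Gpr84, for medium-chain fatty acids, and Hcar2, for hydroxybutyrate and niacin, were below the filter at means of 1.51 and 0.75. Of the 11 tested genes in the list of fatty acid receptors and GPR120 effectors, which holds Gq proteins, beta-arrestins and TAK1 partners, 0 passed the threshold (median difference 0.16). Arrb1, beta-arrestin 1, was 0.32 higher in KO (adjusted p = 0.434).

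Ubd and Hp, both induced by inflammatory cytokines, had the largest measured differences among called genes, though their order is not settled because Ubd was dim in WT. Ubd, also called FAT10, encodes a ubiquitin-like protein that marks proteins for the proteasome. Its HFD values were 3.01, 4.08 and 2.74 in WT and 8.31, 7.64 and 7.69 in KO, and the other 6 mice read 1.51 to 3.65. The KO mice on high fat diet thus stood above all other 9 mice, which lay near or under the filter. The gene was tested only because of its values in those KO mice, so its test is no independent support. The size of the difference is also uncertain (4.60, SE 0.58, adjusted p = 0.00372). Hp encodes haptoglobin, a plasma protein that binds free haemoglobin and is made by liver and fat cells. It read 5.39, 7.65 and 5.73 in WT and 11.19, 10.33 and 10.96 in KO, against 6.73 to 8.39 on the normal diet. The KO values lay above all 9 others, the difference being 4.57 (SE 0.55, adjusted p = 0.00311), about 23.7-fold.

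Across the list of acute phase and cytokine-induced genes, Ubd and Hp were the 2 of 21 tested members that passed, and 17 of 21 had a positive difference. The median of the list was 0.48, beside 0.03 over all genes, of which 6114 of 11345 were positive and 0.732% passed. Other acute phase genes had large means with wide spread. Orm1, orosomucoid, was 2.76 higher (adjusted p = 0.107), Lcn2, lipocalin-2, 2.29 higher (adjusted p = 0.15) and Saa3, the serum amyloid of fat and macrophages, 2.15 higher (adjusted p = 0.0651). The feedback inhibitor of cytokine signalling Socs3 was 1.19 lower in KO (adjusted p = 0.579).

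The promoter of Ubd is printed because all 3 KO mice on high fat diet were above the other 9 mice, which lay near or under the filter, and that of Ctss because the gene, the protease cathepsin S, had the smallest adjusted p of the interaction among the called genes. Both are RefSeq sequences of build GRCm38.p6, from 250 bases before to 50 bases after the gene's start, written 5′ to 3′ on the gene's strand, at chr17:37193642-37193941 for Ubd and chr3:95526536-95526835 for Ctss, each on the plus strand. Capitals mark the matches named below them.

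Ubd: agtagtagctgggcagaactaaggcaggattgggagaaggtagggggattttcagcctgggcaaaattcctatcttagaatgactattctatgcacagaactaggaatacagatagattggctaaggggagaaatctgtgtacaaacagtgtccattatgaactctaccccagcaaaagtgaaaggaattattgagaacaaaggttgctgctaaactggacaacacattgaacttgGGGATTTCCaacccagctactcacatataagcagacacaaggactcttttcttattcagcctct

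Ctss: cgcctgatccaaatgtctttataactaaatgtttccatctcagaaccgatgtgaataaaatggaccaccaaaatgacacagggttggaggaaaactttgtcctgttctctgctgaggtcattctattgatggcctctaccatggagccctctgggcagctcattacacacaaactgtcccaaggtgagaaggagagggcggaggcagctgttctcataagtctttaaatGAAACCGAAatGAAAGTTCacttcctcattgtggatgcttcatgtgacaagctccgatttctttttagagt

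In Ubd the capitals mark GGGATTTCC, 1 spelling of a site for NF-kB, the transcription factor of inflammatory signalling. It was searched on both strands, was chosen after this promoter had been read, and is held by 0.333% of the 27025 promoters in the table. Among the promoters of called genes, which the table covers for 44 of the 58 higher and 17 of the 25 lower genes, only Ubd held it. Another spelling, GGANTTTCC, was held by Anxa1 and by 1.23% of all promoters. In Ctss the first run of capitals is TTCNNTTTC on the opposite strand, a core of the interferon response element, which 2 of the 44 higher genes held (Postn and Ctss) and 8.57% of all promoters. The second run is GAANNTTC, a core of the heat shock element, held by 2 of the 44 (S100a6 and Ctss) and 7.95% of all promoters. Of the promoters of the 17 lower genes, 3 held the cyclic AMP element TGACGTCA (Eef2, Dvl1 and Ltbp1), beside 1.88% of all promoters and 3.17% of the 9197 of tested genes. These matches describe the letters in the window and nothing of binding.

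With high fat feeding, 6 of 22 tested macrophage markers were higher in KO muscle past the threshold and 0 lower. Over all genes tested, 0.511% were higher and 0.22% lower. The 6 were Lgals3 (galectin-3, a lectin secreted by activated macrophages), Cd68 (a lysosomal glycoprotein of phagocytes), Mpeg1 (the pore-forming perforin-2), Gpnmb (a glycoprotein of lipid-laden macrophages), Ctss and Tyrobp (the signalling adaptor DAP12). The median of the 22 was 0.72 and 21 were positive, beside 6114 of 11345 over all genes. On the normal diet the same 22 had a median of −0.55 and 0 called. The remaining 5 of the 27 listed markers were below the filter.

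Lgals3 read 7.21, 8.47 and 7.46 in WT and 10.67, 9.45 and 9.86 in KO. Every KO mouse on high fat diet was above the other 9, whose highest value was 8.47, and the difference was 2.28 (SE 0.31, adjusted p = 0.00539). Cd68 read 6.16, 6.84 and 6.63 in WT and 9.57, 7.84 and 8.52 in KO. Here the KO trio overlaps the ND mice, at 7.32 to 8.43, and the WT trio lies below all 9 others, so that the difference of 2.10 (SE 0.39, adjusted p = 0.0311) comes with low WT values as well as high KO values. Ctss read 8.25, 8.49 and 8.26 in WT and 9.95, 9.29 and 9.31 in KO, a difference of 1.19 (SE 0.17, adjusted p = 0.00753), with the KO trio above all others. Mpeg1, Gpnmb and Tyrobp were higher by 1.61, 1.39 and 1.13. The broad macrophage markers Csf1r, Lyz2 and Adgre1 were 0.80 (adjusted p = 0.159), 0.70 (adjusted p = 0.217) and 0.59 higher (adjusted p = 0.0685). Cd163, a haemoglobin scavenger receptor of resident macrophages, was the 1 member with a negative difference, −0.20 (adjusted p = 0.806).

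Some called genes belonged to none of the lists, and Itgb2, Lcp1, Cotl1, Npc2, Scpep1 and Cstb were named after their values were seen. Itgb2, the beta chain of leukocyte integrins, was 1.32 higher, Lcp1, the actin bundler plastin of leukocytes, 1.33, and Cotl1, an actin-binding protein, 1.45. Pla2g7, the phospholipase that inactivates platelet-activating factor, read 5.75, 5.90 and 6.77 in WT and 8.07, 8.10 and 7.71 in KO. The 6 KO mice of both diets lay above the 6 WT mice, and the difference was 1.82 (SE 0.23, adjusted p = 0.00356). Sncg, gamma-synuclein, a gene of neurons and fat cells, read 6.27, 7.73 and 5.64 in WT and 9.23, 8.89 and 8.55 in KO, above all others (2.34, adjusted p = 0.0358). Tceal7, Efhd2, a calcium-binding actin regulator, and Cela1, an elastase, were 1.83, 1.79 and 1.75 higher. The lysosomal genes Npc2, which carries cholesterol out of the lysosome, and Scpep1, a serine carboxypeptidase, were 0.72 and 0.74 higher, and Cstb, an inhibitor of cathepsins, 0.72. Another probe set of Scpep1 above the filter differed by only 0.05 and was not called. In bulk tissue, more cells of a type and more RNA per cell cannot be told apart.

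The summed linear signal of the 22 macrophage markers was 3273, 6376 and 4476 in WT on high fat diet and 10890, 6400 and 8398 in KO. KO mouse 2 was thus just above WT mouse 2. The other groups ranged from 5152 to 5747 in WT and from 3558 to 4669 in KO on the normal diet. The number of macrophage genes called was 2 without KO mouse 1, 3 without KO mouse 3, 2 without WT mouse 1 and 2 without WT mouse 3. With no intensity trend it was 0.

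In the lymphocyte and granulocyte list 0 of 5 tested members passed, with a median of 0.42 and 4 of 5 positive. The exception was Ighm, the heavy chain of IgM, at −0.89 (adjusted p = 0.176). In the mast cell list 0 of 5 passed, with a median of −0.0057 and 2 of 5 positive, and Tpsab1, a tryptase, had the difference furthest from 0, −1.48 (adjusted p = 0.12). Antigen presentation had 0 of 17 past the threshold, with 16 of 17 positive and a median of 0.55. Its leading members Cd74, the invariant chain, and H2-Eb1, a class II chain, were 0.82 (adjusted p = 0.115) and 0.73 higher (adjusted p = 0.161). The interferon response list had 0 of 27 (median 0.25), led by Ifi27l2a at 1.41 (adjusted p = 0.0833), and the chemokine list 0 of 16, led by Ccl8 at 1.53 (adjusted p = 0.111).

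Of 31 tested members of the fibroblast and extracellular matrix list, 7 were higher in KO on the high fat diet and 0 lower, all 31 differences were positive, and the median was 0.86. Over all genes tested, 0.511% were higher and 0.22% lower, and 6114 of 11345 differences were positive. The 7 were Postn (periostin, a matrix protein of remodelling tissue), the fibrillar collagens Col3a1, Col1a1 and Col5a2, the microfibrillar Col6a2, Bgn (the small proteoglycan biglycan) and Sparc (a collagen-binding glycoprotein). Postn read 6.23, 7.28 and 6.56 in WT and 9.51, 8.20 and 8.86 in KO, a difference of 2.17 (SE 0.39, adjusted p = 0.0277). Col3a1 read 10.53, 11.46 and 10.63 in WT and 12.75, 12.02 and 12.34 in KO, a difference of 1.50 (SE 0.25, adjusted p = 0.0238). In both genes the 3 KO mice lay above all 9 others, and the highest of the 3 WT values on that diet was that of mouse 2. Col1a1 was 6.93, 6.78 and 6.40 in WT and 8.76, 7.89 and 7.89 in KO (1.47, SE 0.22, adjusted p = 0.0105), and its 6 KO mice on either diet did not overlap the 6 WT mice. Tnc, tenascin-C, and Timp1, an inhibitor of matrix proteases, had larger differences that did not pass, 2.08 (adjusted p = 0.103) and 1.93 (adjusted p = 0.117).

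**Figure D2:**
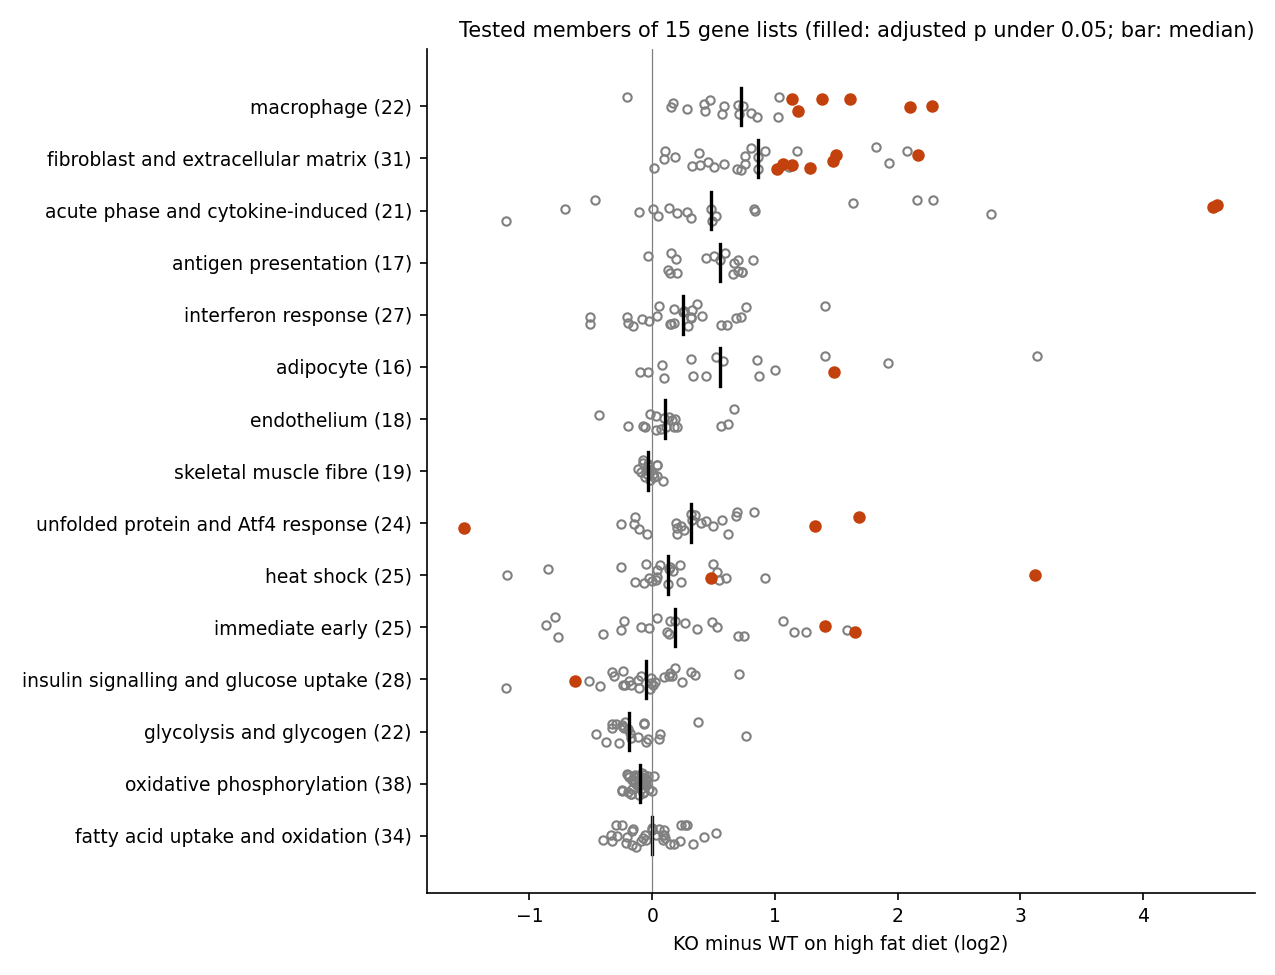
KO minus WT difference on high fat diet (horizontal axis, log2) of each tested member of 15 gene lists, with the number tested in brackets, filled points at an adjusted p under 0.05 and a bar at the list's median. The 31 matrix genes all lie right of 0 with a median of 0.86, the macrophage list has its median at 0.72, and the 38 genes of oxidative phosphorylation are packed just left of 0.

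Counted as a family after their values were seen, 4 of 25 tested collagen genes were higher and 0 lower, with 22 of 25 positive and a median of 0.86. The next 3 families were also chosen after the data were seen, and 0.732% of all genes were called. The annexins, calcium-dependent membrane-binding proteins, had 3 of 8 higher, Anxa2 by 1.07, Anxa5 by 0.97 and Anxa1 by 0.96. The median of the 8 annexins was only 0.12, with 7 positive. The S100 calcium sensors had 2 of 8 (median 0.56, 7 positive), S100a4 at 1.29 and S100a6 at 0.70. The tubulins had 2 of 8 (median 0.71, 7 positive), Tubb2a at 0.86 and Tubb5 at 0.60. Vim, vimentin, the intermediate filament of mesenchymal cells, read 10.62, 10.84 and 10.27 in WT and 11.51, 11.38 and 11.48 in KO (0.88, SE 0.12, adjusted p = 0.00649). Cav1, caveolin-1, the coat protein of caveolae in endothelium, fat cells and fibroblasts, read 10.68, 10.85 and 10.71 in WT and 11.72, 11.57 and 11.56 in KO (0.87, SE 0.09, adjusted p = 0.00174). The KO mice on high fat diet lay above all 9 others in both genes.

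Summed over the 31 matrix genes, the linear signal was 23160, 33190 and 26610 in WT and 45580, 35090 and 40800 in KO on the high fat diet, against 28030 to 32270 in the 6 ND mice. The KO trio was highest, and the WT mouse with the highest macrophage sum, WT mouse 2, also had the highest matrix sum of its group. The number of matrix genes called was 3 with median centring and 0 in a model with no intensity trend. It was 1 without KO mouse 1, 7 without KO mouse 2, 1 without KO mouse 3, 1 without WT mouse 1, 15 without WT mouse 2 and 0 without WT mouse 3.

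**Figure D3:**
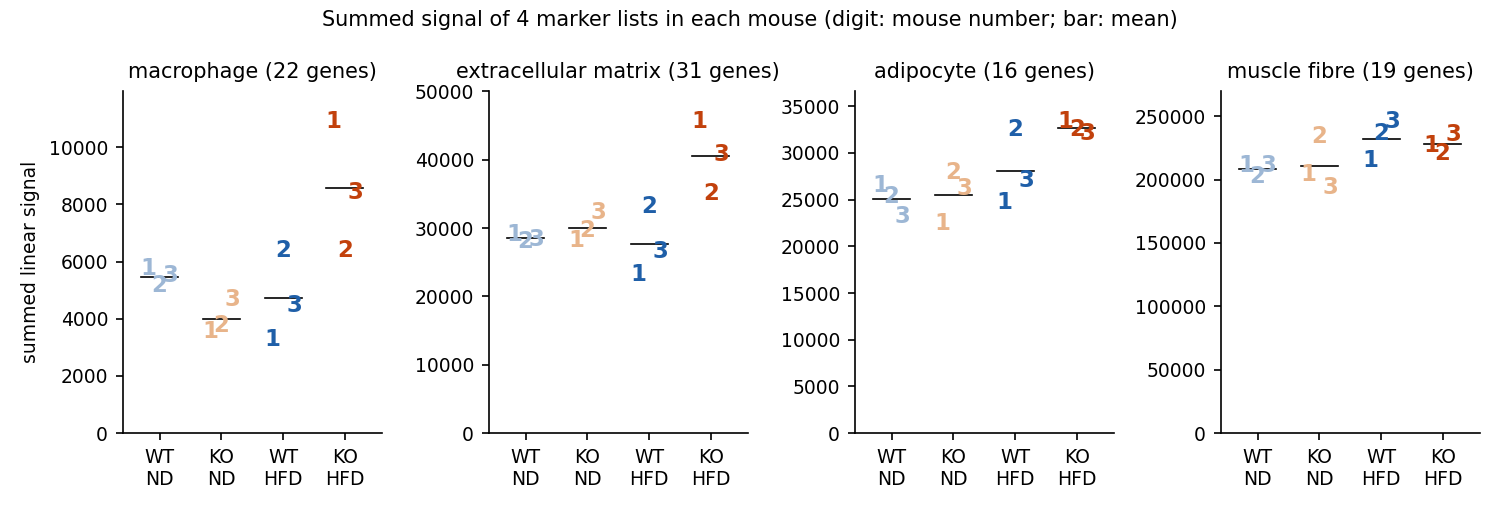
Summed linear signal (vertical axes from 0) of the tested macrophage, extracellular matrix, adipocyte and muscle fibre markers in each of the 12 mice, with digits for the mouse number in its group and a bar for the mean of 3. On high fat diet, KO mouse 1 has the highest macrophage sum, at 10890, KO mouse 2 (6400) is just above WT mouse 2 (6376), and the muscle fibre sums of the genotypes overlap.

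Of 16 tested adipocyte markers, 1 passed, Rbp4, with 14 positive and a median of 0.55. Among all genes tested, 0.732% passed. The hormones leptin, Lep, and adiponectin, Adipoq, were 3.14 (adjusted p = 0.237) and 1.41 higher in KO (adjusted p = 0.257), and Cidec, a protein of fat cell lipid droplets, 1.92 higher (adjusted p = 0.155). Fabp4, the fatty acid carrier of fat cells, was 13.12 in WT and 13.44 in KO (adjusted p = 0.319). The list's summed signal was 24660, 32560 and 27000 in WT and 33350, 32550 and 32040 in KO, so that WT mouse 2 lay among the KO mice. Its part in the differences of other genes was not tested. Endothelial markers had 0 of 18 past the threshold (median 0.10), among them Vwf, von Willebrand factor, at 0.67 (adjusted p = 0.123). The smooth muscle and pericyte list had 0 of 11 (median 0.04), with smooth muscle actin, Acta2, at 0.64 (adjusted p = 0.139). Of 6 nerve and Schwann cell genes 0 passed (median 0.54), with S100b at 1.16 (adjusted p = 0.0833).

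Rbp4, which encodes retinol-binding protein, the plasma carrier of vitamin A and an adipokine, is also the gene that follows Ffar4 on the chromosome. Ffar4 lies at chromosome 19, 38097079 to 38114263, and Rbp4 at 38116620 to 38125321 (GRCm38.p6), with 2357 bases from the end of one to the start of the other. Rbp4 read 6.38, 6.21 and 5.64 in WT and 7.54, 7.77 and 7.36 in KO on the high fat diet. On the normal diet it read 6.49, 6.15 and 6.15 in WT and 6.28, 7.20 and 7.75 in KO. The HFD groups do not overlap, 2 of 3 KO mice on normal diet were above every WT mouse, and the HFD difference was 1.48 (SE 0.30, adjusted p = 0.0406). Of 148 tested genes within 10 Mb of Ffar4, Rbp4 was the 1 called on the high fat diet, and Plce1 and Fas were called on the normal diet. The shares called over all genes tested were 0.732% on high fat and 0.414% on normal diet. The effect of a deletion on a neighbouring gene and that of flanking 129/Sv sequence were not tested, and when each of the 6 HFD mice was left out in turn, Rbp4 passed in 1 of the 6 fits.

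Stress and amino acid genes moved in both directions. Hspb7, a small heat shock protein of heart and muscle that binds sarcomeric filamin, had the smallest adjusted p of all genes. It lies at chromosome 4, 141420779 to 141425310 (GRCm38.p6). It read 9.63, 9.51 and 9.48 in WT on high fat diet and 13.11, 12.37 and 12.50 in KO, a difference of 3.12 (SE 0.26, adjusted p = 0.000133). The normal diet values ran from 11.83 to 13.17 in both genotypes, so the KO mice lay among them and the 3 WT mice on high fat diet stood alone below. The gene's other 2 probe sets above the filter had the same sign and smaller differences of 0.73 and 1.53. Cryab, alpha-B crystallin, another small heat shock protein, showed the same order with a small difference, 13.14, 13.21 and 13.10 in WT and 13.75, 13.50 and 13.62 in KO (0.48, SE 0.10, adjusted p = 0.044). These were the 2 of 25 heat shock genes past the threshold, beside 0.732% of all genes tested.

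In the list of the unfolded protein and Atf4 response, 2 of 24 tested genes were higher and 1 lower. Among all genes tested, 0.511% were higher and 0.22% lower. Psat1, phosphoserine aminotransferase of serine synthesis, averaged 4.76 ± 0.22 in WT and 6.45 ± 0.55 in KO (SD, n = 3 each), with all KO values above the other 9 mice (1.69, SE 0.30, adjusted p = 0.0277). Phgdh, the dehydrogenase of the step before it, was 1.75 higher (SE 0.34, adjusted p = 0.0345), and Sdf2l1, an endoplasmic reticulum chaperone partner, 1.33 higher. Chac1, which cleaves glutathione and is a target of Atf4, went the other way. It read 11.05, 10.84 and 10.83 in WT and 8.84, 9.68 and 9.60 in KO, against 10.36 to 11.64 on the normal diet, so the KO mice on high fat diet lay below all 9 others (−1.53, SE 0.20, adjusted p = 0.00388). The called members of this list therefore did not share a direction. Of all 24 tested members 18 had a positive difference, with a median of 0.32.

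Of 25 immediate early genes, which respond within minutes to growth factors, contraction or handling, 2 passed, beside 0.732% of all genes. Egr1 read 7.43, 8.42 and 8.46 in WT and 10.08, 8.93 and 10.24 in KO (1.65, SE 0.34, adjusted p = 0.0406), and Ier2 5.48, 5.20 and 5.17 in WT and 6.93, 6.27 and 6.86 in KO (1.41, SE 0.24, adjusted p = 0.0277). In each gene the 3 WT mice on high fat diet lay below the other 9, and the KO mice lay within or near the ND values, which ran from 9.58 to 10.46 for Egr1, apart from KO mouse 2, at 8.93 for Egr1. Spry4, a feedback inhibitor of growth factor signalling, was 1.35 higher.

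In the skeletal muscle fibre list 0 of 19 passed, with a median of −0.04, Actn3, the fast-fibre actinin, at −0.11 (adjusted p = 0.496) and Casq1, the fast-fibre calsequestrin, at 0.09 (adjusted p = 0.612). The fast fibre list had 0 of 16. The share called over all genes was 0.732%. Of 17 slow fibre genes 1 was higher, Casq2, the calsequestrin of slow and cardiac muscle, at 7.50, 7.47 and 7.33 in WT and 8.85, 8.20 and 8.36 in KO (1.04, SE 0.16, adjusted p = 0.0167), where all 9 other mice were at 7.57 or less. Mybph, a myosin-binding protein of muscle, named after its values were seen, was 1.57 higher (adjusted p = 0.0284). The satellite cell and regeneration list had 0 of 16 (median 0.21), with the stretch-induced Ankrd1 at 3.37 (adjusted p = 0.0617; SD 1.88 in WT and 1.35 in KO, n = 3 each) and embryonic myosin, Myh3, at 1.01 (adjusted p = 0.225). The summed signal of that list was 25810 in KO mouse 1, beside 9921 and 14470 in the other KO mice and 10610 to 11540 in WT.

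Fuel metabolism gave 0 calls in its main lists. Oxidative phosphorylation had 0 of 38, with a median of −0.10, 1 of 38 differences positive and 14 of 38 with the KO mice wholly below the WT mice, beside 952 of 11345 over all genes. Its leading members were Cox7a1, the muscle form of a cytochrome oxidase subunit, at −0.25 (adjusted p = 0.117) and Uqcrc1 of complex III at −0.25 (adjusted p = 0.366). Fatty acid uptake and oxidation had 0 of 34 (median −0.0042, 16 positive), led by Ppara, the fatty acid-sensing nuclear receptor, at 0.52 (adjusted p = 0.278) and Acsl5, an acyl-CoA synthetase, at 0.42 (adjusted p = 0.365). Glycolysis and glycogen had 0 of 22, with a median of −0.19 and 4 positive, and Pgm1, phosphoglucomutase, at −0.46 (adjusted p = 0.0617). Fatty acid and triglyceride synthesis had 0 of 22, led by Fasn, fatty acid synthase, at 1.40 (adjusted p = 0.069) and Agpat2 at 1.22 (adjusted p = 0.123). The lipid droplet list had 0 of 17, with the droplet coat Plin2 at 1.05 (adjusted p = 0.0733). The coactivator of mitochondrial genes Ppargc1a was 0.74 lower (adjusted p = 0.123).

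Insulin signalling and glucose uptake had 1 of 28 past the threshold, beside 0.732% of all genes. This was Mtor, the kinase of the nutrient-sensing complexes, which was lower. It read 8.67, 8.73 and 8.88 in WT and 8.24, 7.98 and 8.17 in KO, against 7.83 to 8.32 on the normal diet. The WT mice on high fat diet lay above all 9 others (−0.63, SE 0.11, adjusted p = 0.0277). The gene's other 2 probe sets disagreed, at −0.53 and 0.36. Lists with 0 past the threshold also included the clock (0 of 20, median −0.03, Nfil3 at −1.15, adjusted p = 0.0542), atrophy and glucocorticoid response (0 of 27, median −0.11, 6 of 27 positive, with Mt2, a metallothionein, against that direction at 1.41, adjusted p = 0.253), the proteasome (0 of 30, median −0.09, Psma7 at −0.25, adjusted p = 0.237), the cytosolic ribosome (0 of 23, median −0.11, Rpl14 at −0.41, adjusted p = 0.448), cholesterol synthesis (0 of 15, median 0.06, Hmgcs1 at 0.40, adjusted p = 0.22) and the growth axis (0 of 14, median 0.11, Fstl1, a follistatin-like secreted protein, at 0.84, adjusted p = 0.0678). In the list of imprinted growth genes 0 of 11 passed (median 0.22), with Nnat at 1.95 (adjusted p = 0.0672) and Mest, a marker of expanding fat tissue, at 1.71 (adjusted p = 0.0587).

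No list held more than 1 of the 25 lower genes. Tmem100, a membrane protein of vessels downstream of BMP signalling, read 9.83, 8.66 and 9.29 in WT and 6.83, 7.35 and 7.31 in KO, against 8.65 to 9.62 on the normal diet. The KO mice on high fat diet lay below all 9 others (−2.10, SE 0.27, adjusted p = 0.00388). Another probe set of Tmem100 above the filter had a smaller difference, −0.76, and was not called. Rbp7, a cellular retinol-binding protein of endothelium and fat, read 9.11, 9.90 and 9.43 in WT and 7.51, 7.80 and 7.04 in KO, against 6.75 to 8.68 on the normal diet. There it was the WT trio on high fat diet that stood above all others (−2.03, SE 0.35, adjusted p = 0.0277). Rbp7 and Rbp4, both binders of retinol, thus differed in opposite directions. Neto2, an accessory subunit of kainate receptors, read 8.36, 6.80 and 6.71 in WT and 4.95, 5.15 and 5.91 in KO (−1.95, SE 0.36, adjusted p = 0.0306). It separated the 6 KO mice, at most 5.91, from the 6 WT mice on both diets. Ctxn3, a small membrane protein, was 1.92 lower in KO (adjusted p = 0.0406), Crip3, a LIM-domain protein, 1.57 lower (adjusted p = 0.0345), and Aqp4, the water channel of fast fibres, 1.11 lower (adjusted p = 0.0469).

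Flvcr1, which exports haem from the cell, read 9.25, 9.20 and 9.44 in WT and 8.14, 7.83 and 8.26 in KO, below all other mice (−1.22, SE 0.14, adjusted p = 0.00311). Fbxo6, which recognises glycoproteins for degradation, read 9.27, 9.07 and 9.10 in WT and 8.10, 8.04 and 8.05 in KO (−1.09, SE 0.15, adjusted p = 0.00649). Smaller decreases, in genes named after their values were seen, included Spns2, the exporter of sphingosine 1-phosphate, at −0.84, Nuak1, a kinase related to AMPK, at −0.86, Stt3b, an oligosaccharyltransferase subunit, at −0.69, Ube2j1, a ubiquitin-conjugating enzyme of the endoplasmic reticulum, at −0.74, and Eef2, the elongation factor of translation, at −0.38. Another probe set of Ube2j1 above the filter had a difference of −0.19 and was not called. Eef2 was 1 of 2 genes, with Pla2g7, in which both HFD groups lay outside all other mice on opposite sides.

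**Figure D4:**
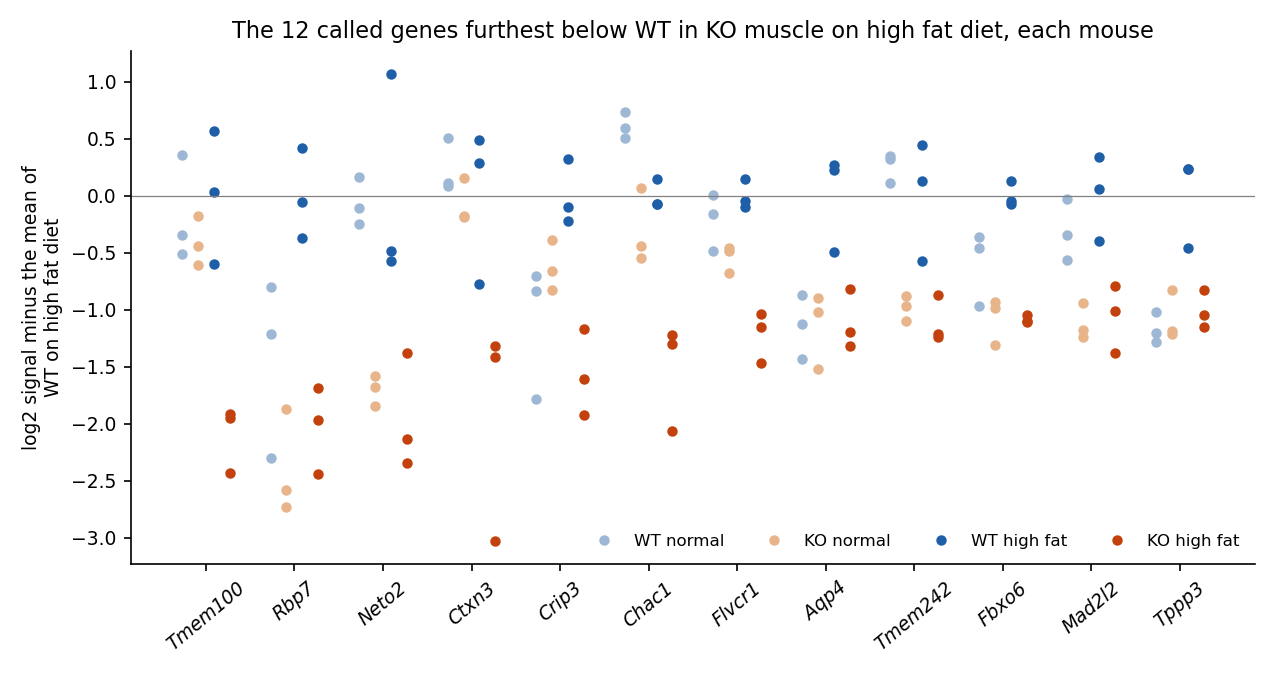
Log2 signal minus the gene's mean in WT on high fat diet (vertical axis) for 12 called genes lower in KO on high fat diet, 1 point for each mouse and a colour for each of the 4 groups. In Tmem100, Chac1 and Flvcr1 the 3 KO mice on high fat diet lie below all others, in Rbp7, Aqp4, Fbxo6 and Tppp3 the 3 WT mice on high fat diet lie above all others, and in Neto2 and Tmem242 the KO mice of both diets lie below the WT mice of both diets.

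Which group stood apart differed from gene to gene. In all 83 called genes the 3 KO and 3 WT values on high fat diet did not overlap, as was so for 19.4% of all genes. The calls were made on the same values, so this and the counts below describe the calls and lend them no support. In 54 of the 83 the KO mice on high fat diet lay outside the range of the other 9 mice (5.63% of all genes), 43 of them above and 11 below. In 21 the WT trio on high fat diet lay outside the other 9 (3.53% of all genes), among them Hspb7, Cryab, Egr1, Ier2, Cd68, Rbp7 and Mtor. In 16 the 6 KO and 6 WT mice did not overlap (1.02% of all genes), among them Col1a1, Neto2, Acot7, Pla2g7 and Sdf2l1. The 4 genes Efhd2, Padi2, Rbp4 and Tceal7 met none of these.

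On the normal diet 47 of 11345 genes were called between the genotypes (0.414%; limma, adjusted p under 0.05), and these comparisons share no arrays. Of the 83 HFD calls, 3 were also called there in the same direction: Cav1, at 0.87 on high fat and 0.56 on normal diet (adjusted p = 0.0183), Nudt9, a hydrolase of ADP-ribose, at 0.50 and 0.57 (adjusted p = 0.0173), and Tmem242, a mitochondrial membrane protein, at −1.11 and −1.24 (adjusted p = 0.0173). Another probe set of Tmem242 had the opposite sign on high fat diet. The ND differences of the 58 higher genes had a median of 0.21, beside 1.29 on high fat. Those of the 25 lower genes had a median of −0.28, beside −0.98. Because these genes were chosen by their HFD difference, the gap between these medians is no test of diet dependence.

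**Figure D5:**
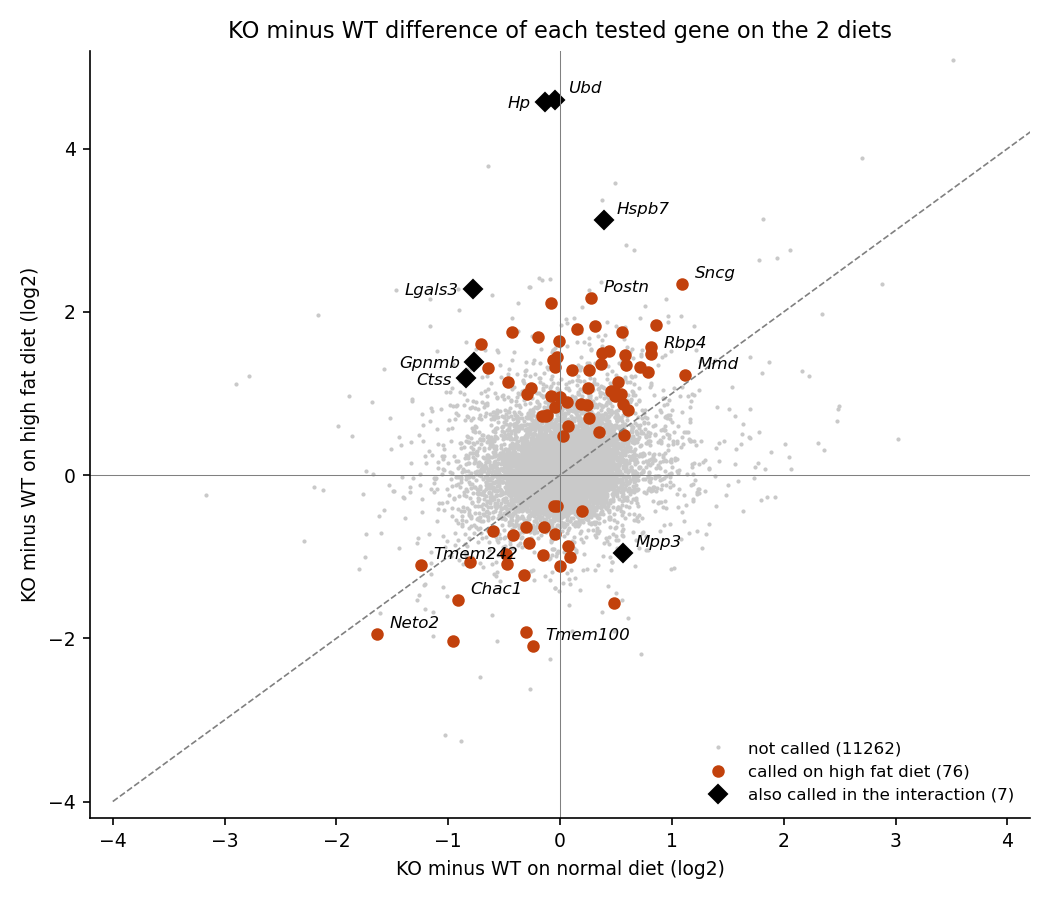
KO minus WT difference on normal diet (horizontal axis, log2) against that on high fat diet (vertical axis, log2) for 11345 genes, with a dashed line of equal differences. Orange points are the 76 genes called on high fat diet and not in the interaction, and diamonds the 7 genes also called in the interaction, of which Ubd and Hp lie at 4.60 and 4.57 on high fat diet and near 0 on normal diet.

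The test of whether the genotype difference depended on diet called 16 genes (0.141%), and 7 of them were also HFD calls: Ubd, Hp, Lgals3, Hspb7, Gpnmb, Ctss and Mpp3. For Lgals3, Gpnmb and Ctss, all from the macrophage list, the difference was positive on high fat diet and negative on normal diet, for example 1.19 and −0.84 for Ctss. Mpp3, a membrane scaffold protein, had the reverse order, −0.95 and 0.56. Mpeg1 (adjusted p = 0.0572), Itgb2 (adjusted p = 0.0572) and Tyrobp (adjusted p = 0.0592) did not pass the interaction test. For the other 76 HFD calls a difference between the diets was not shown.

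By position, 10 of the 83 calls lay on the last part of chromosome 4 beyond 130 Mb, a region chosen after the calls were seen, where 241 genes were tested (4.15%). The called share was 0.732% over all genes tested and 1.74% over the whole of chromosome 4 (12 of 690). The 10 genes were Zfp593, Padi2, Hspb7, Efhd2, Mad2l2, Fbxo6, Mtor, Rbp7, Acot7 and Dvl1, with starts from 134243306 to 155847402 (GRCm38.p6). Of these, 4 were higher in KO and 6 lower, and in 7 the WT trio on that diet stood apart from the other 9. Acot7, which hydrolyses long-chain acyl-CoA, read 7.03, 6.77 and 6.80 in WT and 7.91, 7.74 and 7.95 in KO (SE of the difference 0.13, adjusted p = 0.00388), and Dvl1, a Wnt signalling scaffold, 0.38 lower in KO (adjusted p = 0.0406). All mice carry a mixed background of the strains 129/Sv and C57BL/6, and its part in these calls was not tested.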

How the data were processed

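Per the labels, biotin-labelled muscle RNA of 12 mice was read on 1-colour Affymetrix arrays. The authors deposited log2 signals from MAS5, per the submitters' processing notes (version not given in the sources used here). Their 2 groups on high fat diet had 3 mice each. The p-values rest on the spread between mice within groups, pooled over both diets and drawn towards the intensity trend over all genes. Precision is limited by the number of arrays.

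Of 45101 probe sets, 64 controls were removed, 34945 of the rest had 1 gene symbol in the platform annotation, 932 several and 9160 none, and 34741 matched RefSeq by gene identifier. Probe sets with a mean above the median of 3.78 (13.8 linear) were kept, 22518 in number, and the brightest stood for its gene, which left 11345 genes. MAS5 signals of dim probe sets scatter widely, and this filter reduces that. All 4 groups were fitted in limma 3.58.1 (R 4.3.3) with the variance trended on intensity (residual df 8, prior df 5.42) and Benjamini-Hochberg adjustment. The fit was tested on simulated data of 11345 genes for KO minus WT on high fat diet. It recovered 23.9% of 67 genes changed 1.5-fold, 56.7% of 67 changed 2-fold and 93.9% of 66 changed 4-fold, with 3 unchanged genes called. Whether these figures hold for the real arrays, where the count changed with single mice left out, was not tested. Tables and figures used Python 3.11.15, pandas 2.3.3 and matplotlib 3.10.9.

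The 40 gene lists and the comparison were chosen with earlier results of these data known. Named genes are fatty acid receptors, up to 15 called genes per direction with the largest difference, up to 5 called members per direction of a list (up to 2 leading members where none passed), up to 8 per direction of the interaction that were also called on high fat diet, calls within 10 Mb of Ffar4 and the 5 smallest adjusted p. Uncalled genes named from lists with calls, called list members past the fifth, and genes so marked, were chosen after their values were seen. Of the 40 lists, those not described had 0 called on high fat diet, apart from autophagy and lysosome, with Ctss. Alternatives were offsets, filters, normalizations, probe set rules, array weights, the 3′ to 5′ ratio as covariate, only the 6 arrays, and each mouse left out.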

Additional observations from a re-analysis of the deposited data

Results flagged for a closer look

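In 7 genes called on high fat diet, the KO minus WT difference itself differed between the diets by the interaction test (limma, adjusted p under 0.05). The HFD difference less the ND difference was 4.71 for Hp (SE 0.77, adjusted p = 0.0362), 4.64 for Ubd (SE 0.82, adjusted p = 0.0484), 3.06 for Lgals3 (SE 0.44, adjusted p = 0.0179), 2.73 for Hspb7 (SE 0.36, adjusted p = 0.00972), 2.15 for Gpnmb (SE 0.31, adjusted p = 0.0179), 2.03 for Ctss (SE 0.24, adjusted p = 0.00602) and −1.51 for Mpp3 (SE 0.26, adjusted p = 0.039). Ubd lay near or under the filter in 9 of 12 mice and was tested only because of its values in the KO mice on high fat diet. In Hspb7 the WT mice on high fat diet were the group apart, and in Ubd, Hp, Lgals3, Gpnmb, Ctss and Mpp3 the KO mice on high fat diet. In Ctss the KO mice on normal diet also lay apart, at 7.82, 7.38 and 7.61, below all 9 other mice.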

How the results depend on the processing

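Among the 83 genes called on high fat diet, 0 changed direction over the 19 settings run, 990 of 1565 gene and setting pairs stayed past the threshold and 575 did not. The cause of each change below was not tested. The count of 83 became 144 with an offset at the 50th percentile, 41 with median centring, 7 with no intensity trend and 29 with only the 6 high fat diet arrays, and it ranged from 15 to 237 when 1 mouse was left out. The 47 calls on normal diet became 22 with median centring, 26 with the mean of probe sets, 19 with no intensity trend, 90 with array weights and 25 with the 3′ to 5′ ratio as covariate, and ranged from 9 to 68 with 1 mouse left out. The 16 interaction calls became 10 with quantile normalization, 7 with median centring, 6 over all probe sets, 10 with the mean of probe sets and 1 with no intensity trend, and ranged from 4 to 31. The 6 macrophage calls became 0 with no intensity trend and 2 with only the 6 arrays, and ranged from 2 to 8. The 7 matrix calls became 3 with median centring, 0 with no intensity trend and 2 with only the 6 arrays, and ranged from 0 to 15. Cd163, not called, ranged from −0.37 to 0.11 with 1 mouse left out. No paired analysis was possible because the replicate numbers follow the order of the samples and pair no mice. Probe sets near the filter, such as that of Ubd, have uncertain fold changes.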

Other observations

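Of the 83 called genes, 35 had another probe set above the filter, 59 in all, of which 55 had the same sign and 9 were called. The 4 genes with a probe set of opposite sign were Dynll2, Khdrbs1, Mtor and Tmem242.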
